A study of Mus musculus with 3 samples.

Results

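The 10 genes Aplnr, Apln, Esm1, Cxcl12, Apold1, Sox7, Sox17, Sox18, Dach1 and Hlx were followed in droplet single-cell RNA libraries of mouse hearts, as 10 of the 30415 gene symbols counted. They are known from blood vessel endothelium, and they were chosen by name, with their levels in these same libraries known, so every difference between libraries below is a description and none was tested. Each of 3 groups of NOD/SCID mice, a strain without functional T and B lymphocytes, was 1 pool of 3 hearts read as 1 library. The mice received isotype control antibody, or an antibody against the immune checkpoint receptor PD-1 or its ligand PD-L1 (pembrolizumab and atezolizumab), on days 0 and 7, and hearts were taken on day 14. In the labels of both antibody libraries the title names one antibody and the treatment tag the other one, so these libraries are called by title (PD1/PEM, PDL1/ATZ) and no difference is assigned to an antibody. The labels give no age or sex. With 1 library per group there was no replicate, and every interval is a 95% interval for counting error only.

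Apelin, encoded by Apln, is a secreted peptide that signals through the G protein-coupled receptor Aplnr on endothelial cells, and Apln and Esm1 mark the tip cells of growing vessel sprouts. The SoxF transcription factors Sox7, Sox17 and Sox18 specify endothelial, arterial and lymphatic fates. Dach1 is a transcriptional cofactor that in mouse embryos favours growth of coronary arteries, where it acts through the chemokine Cxcl12, and Apold1 is an early response gene of endothelium.

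The isotype, PD1/PEM and PDL1/ATZ libraries held 9510, 6388 and 11599 cells with 16677883, 14766346 and 15144668 UMIs (unique molecular identifiers, the unit in which captured transcripts are counted). A cell had a median of 1532.5, 2013.5 and 1010 UMIs, and a median of 27.1%, 26.9% and 8.04% of them came from mitochondrially encoded genes. Of the cell barcodes, 23 occurred both in isotype and in PD1/PEM, and 0 of those in PDL1/ATZ occurred in another library. As many as 161 gene symbols reached 500 UMIs in one of isotype and PDL1/ATZ while being at 0 in the other, and 0 symbols did so for isotype and PD1/PEM. The PDL1/ATZ library thus stood apart from the other two before any of the 10 genes was considered. Whether it was counted with the same gene annotation and the same treatment of intronic reads is not given in the sources used here. Differences in counting and in the hearts cannot be told apart in its levels and ratios.

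Cells with at least 3 of the endothelial markers Pecam1, Cdh5, Emcn, Egfl7 and Cldn5 detected numbered 1214 in the isotype library (12.8%, 95% Clopper-Pearson interval 12.1 to 13.5), 1644 in PD1/PEM (25.7%, 24.7 to 26.8) and 2549 in PDL1/ATZ (22.0%, 21.2 to 22.7). These marker cells were the deeper cells, with medians of 2348, 3036.5 and 1709 UMIs against 1183.5, 1328 and 852 in cells with no marker. Cells were thinned to 1000 UMIs each (1784, 532 and 5677 cells had fewer and were left out). The endothelial cadherin Cdh5 was detected in 22.6% of isotype cells with a Pecam1 UMI (20.9 to 24.3) and in 22.5% of cells without one (21.4 to 23.7). The same shares were 23.3% and 24.6% in PD1/PEM and 32.0% and 30.5% in PDL1/ATZ. Cdh5 was therefore seen about as often with as without Pecam1. With and without Cdh5, Egfl7 was detected in 12.5% and 11.6% of isotype cells and in 15.2% and 15.9% of PD1/PEM cells. In PDL1/ATZ these shares were 36.9% (34.7 to 39.1) and 34.1% (32.6 to 35.6). Myh6, the heart muscle myosin, had 7403 CPM (UMIs scaled to a total of 1000000) in isotype marker cells and 7870 CPM in isotype cells with no marker. In PDL1/ATZ the sets differed more, with Myh6 at 2640 against 3919 CPM (1.48-fold lower in marker cells, 1.44 to 1.53). The summed level of 17 endothelial identity genes outside the marker set was 7517 CPM in marker cells and 6059 CPM in cells with no marker. Its genes differed in direction. Fli1, Flt1 and Eng were 1.69-, 1.38- and 1.38-fold higher in marker cells. Ecscr, Mmrn2, Esam and Kdr were at 0.803, 0.927, 0.931 and 0.945 of the level in cells with no marker. In each library heart muscle transcripts stayed in the selected cells, so these are called marker cells here, not endothelial cells. The levels below are those of whole libraries, in which fewer cells of a type and less RNA per cell cannot be told apart.

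None of the 10 genes was at least 2-fold higher in marker cells than in cells with no marker in any of the 3 libraries. Hlx was 2.26-fold lower in isotype marker cells, on 7 against 16 UMIs and with an interval that included 1 (0.878 to 6.49). The receptor gene Aplnr was 1.76-fold higher in isotype marker cells (0.896 to 3.57), 1.12-fold in PD1/PEM (0.692 to 1.89) and at 0.892 of the level of the other cells in PDL1/ATZ (0.686 to 1.17). Dach1 in PDL1/ATZ showed a gradient: 801 CPM in cells with 0 markers (761 to 843), 1055 CPM with 3 (1018 to 1092), 1198 CPM with 4 (1146 to 1252) and 1512 CPM with 5 (1365 to 1670). The median depth of these cells rose as well, at 852, 1483, 2195 and 2855 UMIs, and its part in the gradient was not tested. The VEGF receptor gene Flt1, which was not used to choose the cells, went from 1112 CPM with 0 markers to 1851 CPM with 5 in the same library, and the pericyte gene Rgs5 from 571 to 440 CPM. In the isotype library Dach1 was at 149 CPM with 0 markers (135 to 163) and 178 CPM with 5 (102 to 290), intervals that overlapped. Sox18 was 1.45-fold higher in isotype marker cells (1.11 to 1.90), and the intervals of its ratios in PD1/PEM and PDL1/ATZ, 0.836 to 3.20 and 0.731 to 1.33, included 1.

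**Figure D1:**
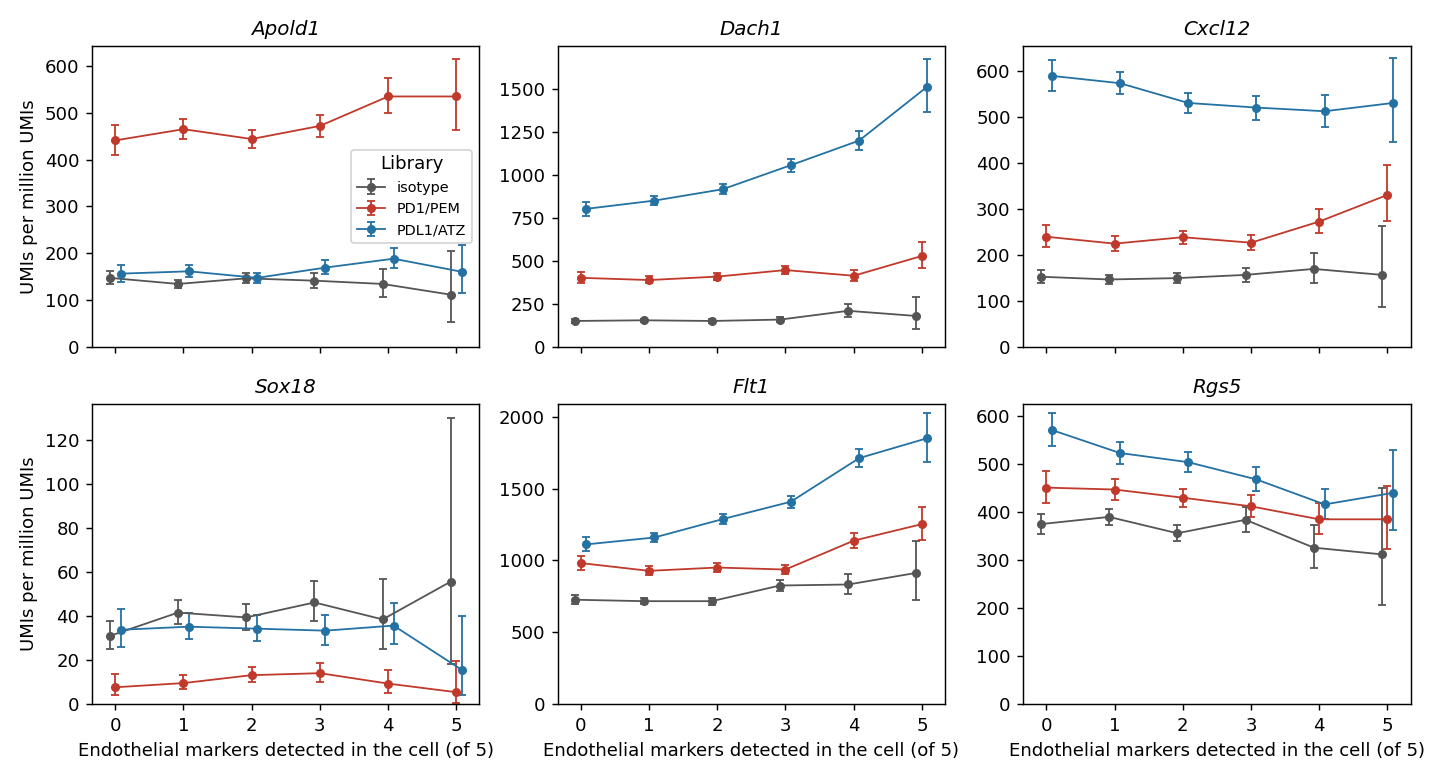
Level of 4 of the genes, of Flt1 and of the pericyte gene Rgs5 (CPM) in cells with 0 to 5 of the endothelial markers detected, by library; bars are 95% Poisson intervals. The Apold1 line of PD1/PEM lies above the other libraries at each marker number, and Dach1 and Flt1 in PDL1/ATZ climb from 801 to 1512 CPM and from 1112 to 1851 CPM.

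Over all deposited cells, 5 of the 10 genes were at least 2-fold higher in PD1/PEM than in the isotype library, beside 0.861% of the 14748 genes with at least 50 UMIs over both libraries. They were Hlx, Esm1, Apold1, Dach1 and Aplnr. Sox18 was the 1 gene at least 2-fold lower, beside 0.454% of genes. The genes were picked with this contrast in view, so nothing is read from these counts against their background. All 10 genes passed the minimum, their median log2 ratio was 0.95, and that of all genes was 0.01. In marker cells 4 of 10 were at least 2-fold higher, beside 2.52% of 13390 genes with at least 20 UMIs, and Sox18 was again lower, beside 1.43%. Aplnr, at 1.86-fold there (1.18 to 3.02), was the gene that dropped under the limit.

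**Figure D2:**
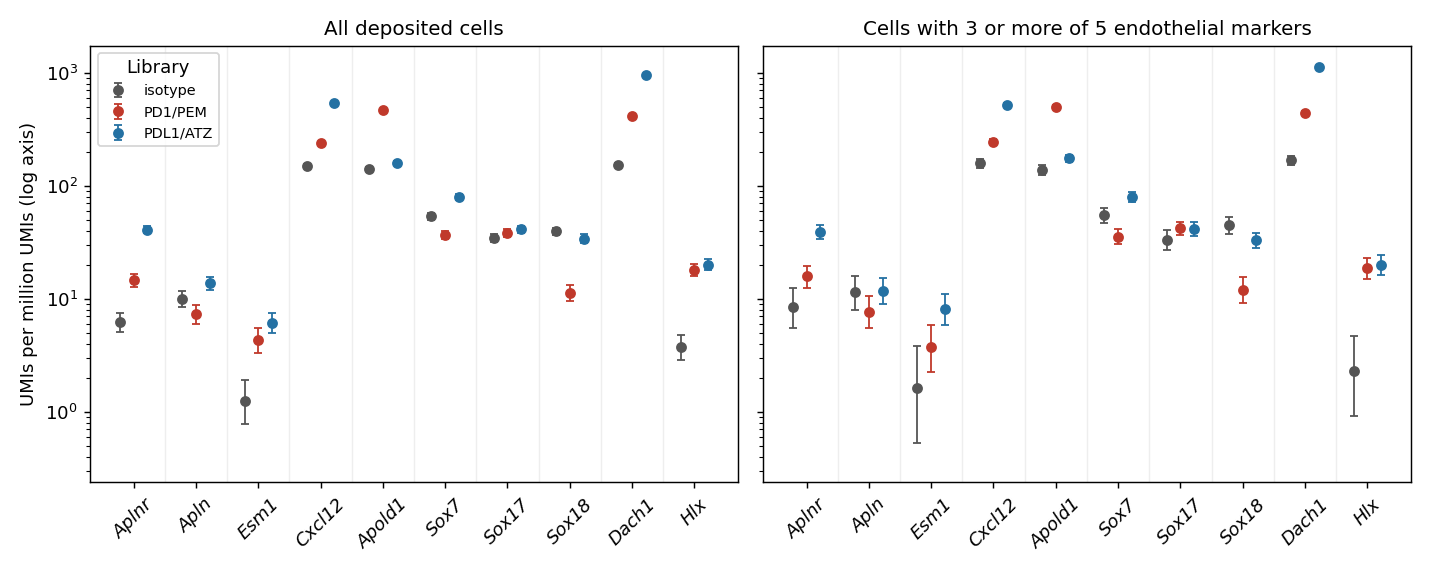
CPM of the 10 genes (log axis) in the 3 libraries, over all deposited cells and over marker cells; bars are 95% Poisson intervals for counting error. Apold1 is high in PD1/PEM alone at 466 CPM, and Sox18 is low there at 11.3 CPM.

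Apold1 encodes a vascular protein of the apolipoprotein L domain family and is induced early in stimulated endothelial cells. It had 2342 UMIs in the isotype library (140 CPM, 135 to 146), 6888 in PD1/PEM (466 CPM, 456 to 478) and 2436 in PDL1/ATZ (161 CPM, 155 to 167). PD1/PEM was highest, and the PDL1/ATZ level was near that of isotype on this scale. Its log2 ratio to isotype of 0.20 became -0.37 with TMM factors and -0.73 when scaled to the endothelial markers, so the order of those libraries depends on the scaling. The ratio to isotype was 3.32 in PD1/PEM (3.17 to 3.48), and 10 of 14748 genes had a higher one. Thinned to 1000 UMIs, 37.9% of PD1/PEM cells had an Apold1 UMI, against 13.2% of isotype and 14.5% of PDL1/ATZ cells. Among cells with no marker the shares were 36.3%, 12.7% and 15.1% in the same order. The PD1/PEM ratio was 3.57 in marker cells (3.22 to 3.97) and 3.00 in cells with no marker (2.66 to 3.38). Apold1 was detected in 39.1% of thinned PD1/PEM cells with a Flt1 UMI (37.5 to 40.7) and in 35.9% without one (33.9 to 37.9). These shares were 13.3% and 13.1% in isotype and 15.2% and 12.9% in PDL1/ATZ. Since detection of Cdh5 hardly depended on Pecam1, the shares and ratios by marker do not say which cells held the transcript. No cell type that should lack Apold1 could be set apart as a background.

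Hlx encodes a homeobox transcription factor that in cultured human endothelial cells restrains sprouting. It was a rare transcript, with 63 UMIs in the isotype library (3.78 CPM, 2.90 to 4.83), 265 in PD1/PEM (17.9 CPM, 15.9 to 20.2) and 304 in PDL1/ATZ (20.1 CPM, 17.9 to 22.5). The isotype library was the low one, and the intervals of the other libraries overlapped. PD1/PEM was 4.75-fold above isotype (3.60 to 6.36), and 1 of 14748 genes had a larger ratio. With cells thinned to 1000 UMIs the log2 ratio was 1.65 in place of 2.25, which is over 1.5 times smaller as a ratio. In marker cells the ratio was 8.12 (3.79 to 20.8) but rested on 7 isotype UMIs.

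Dach1 had 2570 UMIs in the isotype library (154 CPM, 148 to 160), 6098 in PD1/PEM (413 CPM, 403 to 423) and 14409 in PDL1/ATZ (951 CPM, 936 to 967). The levels were ordered isotype, PD1/PEM, PDL1/ATZ without overlap of the intervals. PD1/PEM exceeded isotype 2.68-fold (2.56 to 2.81), and 2.61-fold in marker cells (2.37 to 2.88). Dach1 spans 383 kb on chromosome 14 (GRCm38, 97786853 to 98169765, minus strand), no shorter than 98.2% of 21924 protein-coding genes. The 980 genes tested that span over 200 kb had a median log2 ratio of 0.13 in PD1/PEM and 8 of them (0.816%) were at least 2-fold higher. For 2686 genes under 10 kb the median was -0.05 and 1.15% were at least 2-fold higher. For PDL1/ATZ the median of 969 genes over 200 kb was 0.86 and 37.3% were at least 2-fold higher. For 2801 genes under 10 kb the PDL1/ATZ values were 0.40 and 16.6%. Gene span thus moved with the PDL1/ATZ ratios and, by less, with the PD1/PEM median. Its part in the Dach1 ratios was not tested.

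The gene Esm1 encodes endocan, a proteoglycan secreted by tip cells. It had the fewest UMIs of the 10 genes, with 21 in the isotype library (1.26 CPM, 0.779 to 1.92), 64 in PD1/PEM (4.33 CPM, 3.34 to 5.53) and 93 in PDL1/ATZ (6.14 CPM, 4.96 to 7.52). Isotype was lowest, and the other intervals overlapped. The PD1/PEM ratio was 3.44 (2.07 to 5.93), and in marker cells, with 19 against 5 UMIs, 2.30 (0.830 to 7.88), an interval that included 1. Esm1 lies within the span of Gzmk on the opposite strand of chromosome 13. Gzmk had 19, 8 and 51 UMIs in the isotype, PD1/PEM and PDL1/ATZ libraries, and whether the counting used strand is not given in the sources used here.

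Promoter windows of RefSeq genes on GRCm38.p6, from 250 bases before to 50 after a gene's start, matched 6 of the 10 genes. The windows of Apold1, Dach1, Hlx and Esm1 are shown, since these were the 4 genes at least 2-fold higher in PD1/PEM both over all cells and in marker cells. They lie at chr6:134981751-134982050 (plus strand), chr14:98169716-98170015 (minus strand), chr1:184732444-184732743 (minus strand) and chr13:113209409-113209708 (plus strand). Each is written 5′ to 3′ along its gene, and capitals mark matches on either strand to the SOX cores ACAAAG and ACAATG, the ETS core GGAAG, the cyclic AMP response element core TGACG, the EGR site GCGTGGGCG, the E-box CACGTG and the TATA box TATAAA.
Apold1: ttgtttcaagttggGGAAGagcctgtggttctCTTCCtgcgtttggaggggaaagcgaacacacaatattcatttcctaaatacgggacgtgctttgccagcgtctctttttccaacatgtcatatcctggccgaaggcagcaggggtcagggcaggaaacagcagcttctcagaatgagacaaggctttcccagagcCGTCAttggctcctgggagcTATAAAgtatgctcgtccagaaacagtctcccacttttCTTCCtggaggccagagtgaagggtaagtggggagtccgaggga
Dach1: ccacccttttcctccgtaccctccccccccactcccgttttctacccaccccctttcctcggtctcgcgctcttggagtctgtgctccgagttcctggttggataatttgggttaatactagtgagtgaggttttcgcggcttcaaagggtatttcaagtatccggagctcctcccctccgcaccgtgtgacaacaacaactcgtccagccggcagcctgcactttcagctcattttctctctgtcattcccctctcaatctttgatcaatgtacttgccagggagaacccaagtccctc
Hlx: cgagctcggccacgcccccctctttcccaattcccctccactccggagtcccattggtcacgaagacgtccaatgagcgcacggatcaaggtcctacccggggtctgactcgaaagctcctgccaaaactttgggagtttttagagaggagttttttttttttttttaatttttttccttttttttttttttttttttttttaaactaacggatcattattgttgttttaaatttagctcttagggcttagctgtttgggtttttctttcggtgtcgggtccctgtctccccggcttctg
Esm1: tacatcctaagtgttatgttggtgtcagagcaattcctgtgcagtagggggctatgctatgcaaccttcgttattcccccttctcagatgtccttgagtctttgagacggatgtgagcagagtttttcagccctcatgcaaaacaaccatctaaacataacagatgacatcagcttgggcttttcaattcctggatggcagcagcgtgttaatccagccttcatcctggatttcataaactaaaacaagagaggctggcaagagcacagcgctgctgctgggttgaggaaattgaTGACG
Apold1 had 5 matches. A TATAAA lay 32 bases before the RefSeq start, and 13.6% of 32851 windows hold one. A TGACG lay 52 bases before that start (20.8% of windows), and the other 3 matches were GGAAG, which 71.4% of windows hold. In the GENCODE gene set Apold1 starts earlier, at 134981718, so this whole window lies within its GENCODE span. The GENCODE start of Hlx, 184732619, lies inside the Hlx window. Esm1 had a TGACG 46 bases into the gene, and the Dach1 and Hlx windows had 0 matches. No motif was present in all 4 windows, and none of the 6 windows held GCGTGGGCG, which 0.612% of all windows hold. A match is a description of letters and not evidence of binding.

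Over all deposited cells, receptor and ligand of the apelin system differed in direction between PD1/PEM and isotype. Aplnr had 104 UMIs in the isotype library (6.24 CPM, 5.10 to 7.56), 216 in PD1/PEM (14.6 CPM, 12.7 to 16.7) and 623 in PDL1/ATZ (41.1 CPM, 38.0 to 44.5). The 3 levels were again apart and in the same order as for Dach1, and PD1/PEM was 2.35-fold above isotype (1.85 to 2.99). Apln had 167 UMIs in the isotype library (10.0 CPM, 8.55 to 11.7), 108 in PD1/PEM (7.31 CPM, 6.0 to 8.83) and 208 in PDL1/ATZ (13.7 CPM, 11.9 to 15.7). The ligand was 1.37-fold lower in PD1/PEM (1.07 to 1.76), although the intervals of its PD1/PEM and isotype levels overlapped. In marker cells it was 1.48-fold lower (0.913 to 2.40). In cells with up to 25% mitochondrial UMIs it was 1.26-fold lower (0.788 to 2.04). Both intervals included 1. Aplnr was 1.86-fold higher in PD1/PEM marker cells (1.18 to 3.02). Of the UMIs of both genes, the receptor made up 38.4% in the isotype library (32.6 to 44.5), 66.7% in PD1/PEM (61.2 to 71.8) and 75.0% in PDL1/ATZ (71.9 to 77.9), a share that does not depend on the library total.

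The apelin pathway list of 14 genes, which holds Aplnr and Apln, had 13 genes past the minimum, of which 11 were higher in PD1/PEM and 1, Aplnr, was at least 2-fold higher. Its median log2 ratio was 0.34, against 0.01 over all genes. Of all 14748 genes 7528 were higher and 0.861% at least 2-fold. Klf2, a transcription factor induced by flow and by apelin signalling, was at 473 against 263 CPM. The beta-arrestin gene Arrb1, whose product uncouples activated receptors, was at 24.7 against 34.6 CPM, and Arrb2 at 12.8 against 9.29 CPM.

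The chemokine gene Cxcl12 had 2506 UMIs in the isotype library (150 CPM, 144 to 156), 3509 in PD1/PEM (238 CPM, 230 to 246) and 8255 in PDL1/ATZ (545 CPM, 533 to 557). The 3 intervals did not overlap, with PDL1/ATZ highest, and the PD1/PEM ratio of 1.58 (1.50 to 1.67) stayed under 2-fold. All 4 genes of its axis, Cxcl12 among them, were higher in PD1/PEM, at a median log2 ratio of 0.55, and 0 reached 2-fold. Of all 14748 genes 7528 were higher and 0.861% at least 2-fold, at a median of 0.01. The scavenging receptor Ackr3 was at 136 against 79.6 CPM, the signalling receptor Cxcr4 at 15.0 against 11.1 CPM, and Dpp4, a protease that inactivates the chemokine, at 15.2 against 12.2 CPM.

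Among the SoxF genes, Sox18 was past 2-fold lower in PD1/PEM, Sox7 was lower by less, and Sox17 was near the isotype level. Sox18, best known for switching on the lymphatic regulator Prox1, had 661 UMIs in the isotype library (39.6 CPM, 36.7 to 42.8), 167 in PD1/PEM (11.3 CPM, 9.66 to 13.2) and 517 in PDL1/ATZ (34.1 CPM, 31.3 to 37.2). It was 3.50-fold lower in PD1/PEM than in isotype (2.95 to 4.18), and 4 of 14748 genes had a lower ratio. Sox7, an early endothelial factor, had 896, 546 and 1215 UMIs (53.7, 37.0 and 80.2 CPM) in the isotype, PD1/PEM and PDL1/ATZ libraries and was 1.45-fold lower in PD1/PEM (1.30 to 1.62). Sox17, which drives arterial identity, had 578, 569 and 624 UMIs (34.7, 38.5 and 41.2 CPM) in the same order. Its PD1/PEM ratio of 1.11 (0.989 to 1.25) included 1, and its log2 ratio of 0.15 became -0.02 with cells thinned to 1000 UMIs. The 3 Sox17 levels were close and neighbouring intervals overlapped. On the opposite strand, Sox17 overlaps the uncharacterised transcript Gm37587, which had 39 UMIs in PDL1/ATZ and 0 in the other libraries.

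As a share of all SoxF UMIs, which does not depend on the library total, Sox18 made up 31.0% in the isotype library (29.0 to 33.0), 13.0% in PD1/PEM (11.2 to 15.0) and 21.9% in PDL1/ATZ (20.3 to 23.7). Sox17 took 27.1%, 44.4% and 26.5%, and Sox7 42.0%, 42.6% and 51.6%, in the same order. In marker cells the Sox18 share was 33.7% (29.1 to 38.5), 13.4% (10.4 to 16.9) and 21.5% (18.6 to 24.6). PD1/PEM had the lowest Sox18 share in both sets of cells and the highest Sox17 share, while its Sox7 share lay within the isotype interval of 39.9 to 44.1.

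**Figure D3:**
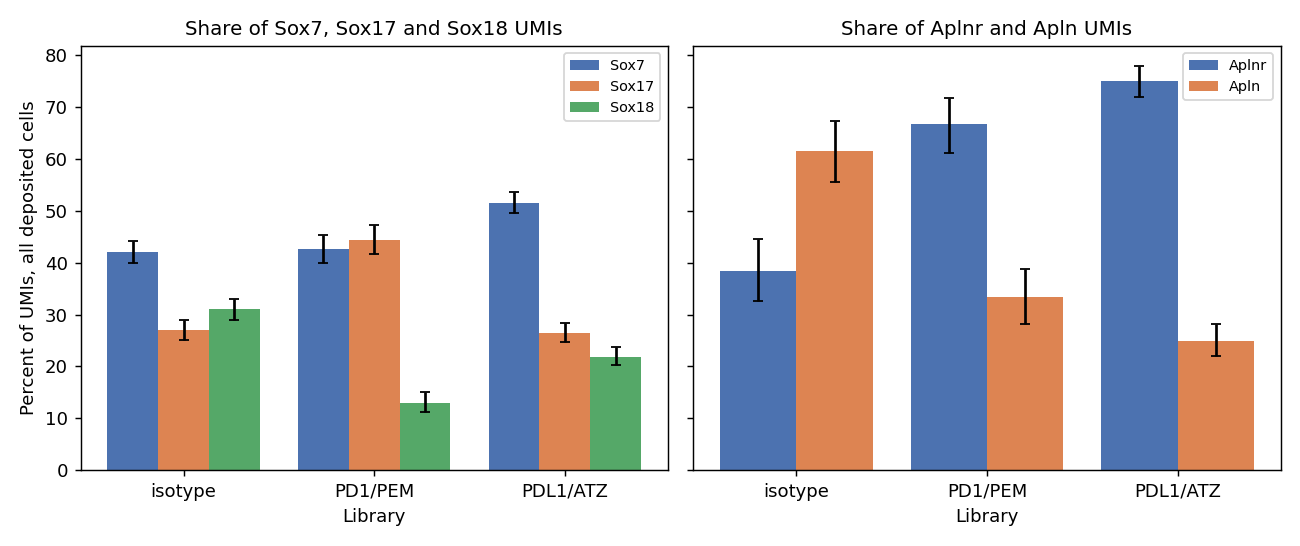
Percent of the UMIs of Sox7, Sox17 and Sox18, and of Aplnr and Apln, taken by each gene in the 3 libraries, over all deposited cells; bars start at 0 and error bars are 95% Clopper-Pearson intervals. Sox18 is lowest at 13.0% of SoxF UMIs in PD1/PEM, and Aplnr goes from 38.4% in isotype to 75.0% in PDL1/ATZ.

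The list of 22 SoxF targets and partners had 21 genes past the minimum, 15 of them higher in PD1/PEM and 0 past 2-fold either way. Its median log2 ratio was 0.08, where 7528 of all 14748 genes were higher, at a median of 0.01. Scaled to the endothelial markers, the list median became -0.02, with 10 higher and 11 lower. Over all genes the median was then -0.10, with 5548 higher and 9200 lower. Fli1 and Erg, ETS factors of endothelium, were at 540 against 281 and at 81.5 against 49.5 CPM in PD1/PEM and isotype. The arterial ligand gene Efnb2 was at 120 against 67.5 CPM and the VEGF receptor gene Kdr at 300 against 189 CPM. Prox1, the lymphatic regulator downstream of Sox18, was at 50.7 against 41.0 CPM. These sums over all cells do not say which cells held Prox1, and its link to Sox18 was not tested. Of 20 endothelial identity genes not used to choose cells, 3 of them SoxF, 13 were higher in PD1/PEM, at a median of 0.19, and Sox18 was the 1 gene past 2-fold.

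Other gene groups also differed between PD1/PEM and isotype. Of 24 immediate early genes, which respond within minutes to stimulation and to tissue digestion, 22 were higher in PD1/PEM and 7 at least 2-fold, at a median log2 ratio of 0.55, where 7528 of all 14748 genes were higher and 0.861% at least 2-fold. Scaled to the endothelial markers, 21 were higher and 5 at least 2-fold, where 5548 of all genes were higher and 84 at least 2-fold. Egr3 was at 155 against 29.1 CPM, Egr2 at 33.0 against 8.99, Btg2 at 552 against 232 and Nr4a1 at 369 against 158 CPM, with the isotype value second. In PDL1/ATZ, where Apold1 was near the isotype level on the plain scale, 12 of the 24 were higher and 0 reached 2-fold, at a median of -0.02, where 12664 of all 15494 genes were higher and 25% at least 2-fold. With TMM factors 3 of the 24 were higher and 21 lower, 4 of them at least 2-fold. Of all 15494 genes 7877 were then higher, 7617 lower and 1155 at least 2-fold lower. Scaled to the endothelial markers all 24 were lower, where 11019 of all genes were lower and 4475 higher. The summed level of 6 cardiomyocyte markers, none of them at 0, was 28771 CPM in isotype (28690 to 28853), 21402 in PD1/PEM (21327 to 21477) and 9606 in PDL1/ATZ (9556 to 9655). The summed level of 17 endothelial identity genes other than SoxF, with 0 of 17 at 0 UMIs, ran the other way, at 3828 CPM (3798 to 3858), 4719 (4684 to 4754) and 6680 (6639 to 6722). In PDL1/ATZ the median log2 ratio over all genes was 0.58 on this scale, and that of the 20 identity genes with SoxF was 0.82. Scaled to the endothelial markers these medians were -0.35 and -0.11. The endothelial markers themselves differed in direction. Pecam1, Cdh5, Emcn, Egfl7 and Cldn5 had ratios to isotype of 0.817, 1.06, 1.32, 1.38 and 1.47 in PD1/PEM. In PDL1/ATZ they were 1.46, 1.49, 3.01, 3.47 and 0.967. The parts of these groups in the ratios of the 10 genes were not tested.

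The PD1/PEM ratios were also taken on either side of a mitochondrial limit. In cells with up to 25% mitochondrial UMIs (2602 isotype, 1981 PD1/PEM) the ratios were 4.37 for Hlx, 3.09 for Aplnr, 3.05 for Apold1 and 2.46 for Dach1, and Sox18 was 3.30-fold lower. In cells over 25% they were 4.94, 2.17, 3.44 and 2.79, and Sox18 was 3.58-fold lower. Both strata therefore gave ratios of at least 2-fold for these 5 genes. Counted with no minimum of UMIs, under each of the 10 other settings that rescale or leave out cells Aplnr, Esm1, Apold1, Dach1 and Hlx stayed at least 2-fold higher and Sox18 at least 2-fold lower. Their lowest log2 ratios were 1.12, 1.57, 1.61, 1.30 and 1.65, and the Sox18 value ran from -1.98 to -1.72.

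The PDL1/ATZ comparison uses the same isotype library and is given beside the first without a count of what they share. All genes were shifted in it: the median log2 ratio over 15494 genes was 0.58, and 12664 genes were higher. The genes Aplnr, Dach1, Hlx, Esm1 and Cxcl12, 5 of the 10, were at least 2-fold higher, beside 25% of genes, and 0 were at least 2-fold lower, beside 2.48%. In marker cells the counts were also 5 and 0, beside 26.1% and 3.33% of 14214 genes, where the median of all genes was 0.54. Aplnr had a log2 ratio of 2.72, Dach1 2.63, Hlx 2.41, Esm1 2.29 and Cxcl12 1.86, all above the shift. Sox7 at 0.58 lay at it, while Apln at 0.46, Sox17 at 0.25, Apold1 at 0.20 and Sox18 at -0.22 lay below it.

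The scaling set several of these directions. With TMM factors, which centre the median of all genes at 0.01, Apln was at -0.11, Sox17 at -0.32, Apold1 at -0.37, Sox18 at -0.78 and Sox7 at 0.01 in PDL1/ATZ, so the sign of Apln, Sox17 and Apold1 turned. Aplnr at 2.16, Dach1 at 2.06, Hlx at 1.84, Esm1 at 1.72 and Cxcl12 at 1.29 stayed above 2-fold. Scaled to the 5 endothelial markers, Cxcl12 was at 0.93 and Sox18 at -1.14. Over all genes, 3870 at least 2-fold higher and 385 lower became 1103 and 1155 with TMM factors. For PD1/PEM the same split was 127 and 67, and 84 and 113 when scaled to the endothelial markers.

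**Figure D4:**
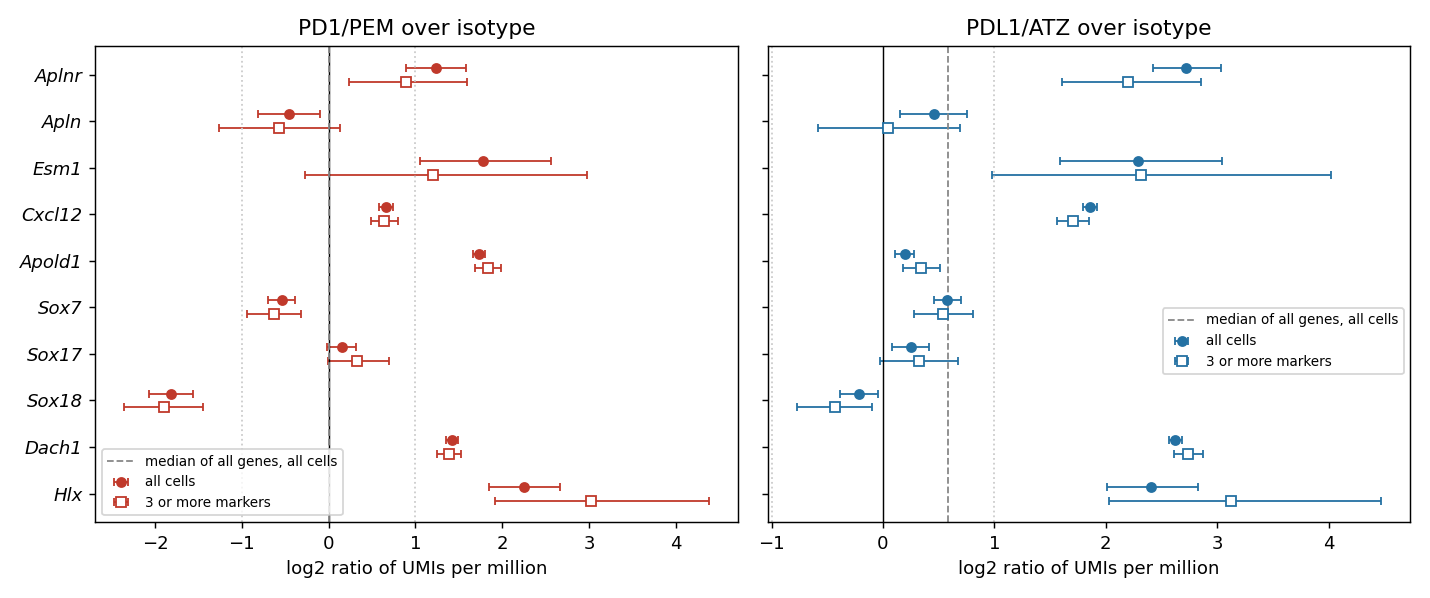
Log2 ratio to isotype of each of the 10 genes in PD1/PEM and in PDL1/ATZ, over all cells (filled) and marker cells (open), with 95% exact conditional binomial intervals; the dashed line is the median of all genes, 0.01 and 0.58. Sox18 lies below -1 in PD1/PEM, and Aplnr, Esm1, Cxcl12, Dach1 and Hlx lie right of 1 in PDL1/ATZ.

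**Figure D5:**
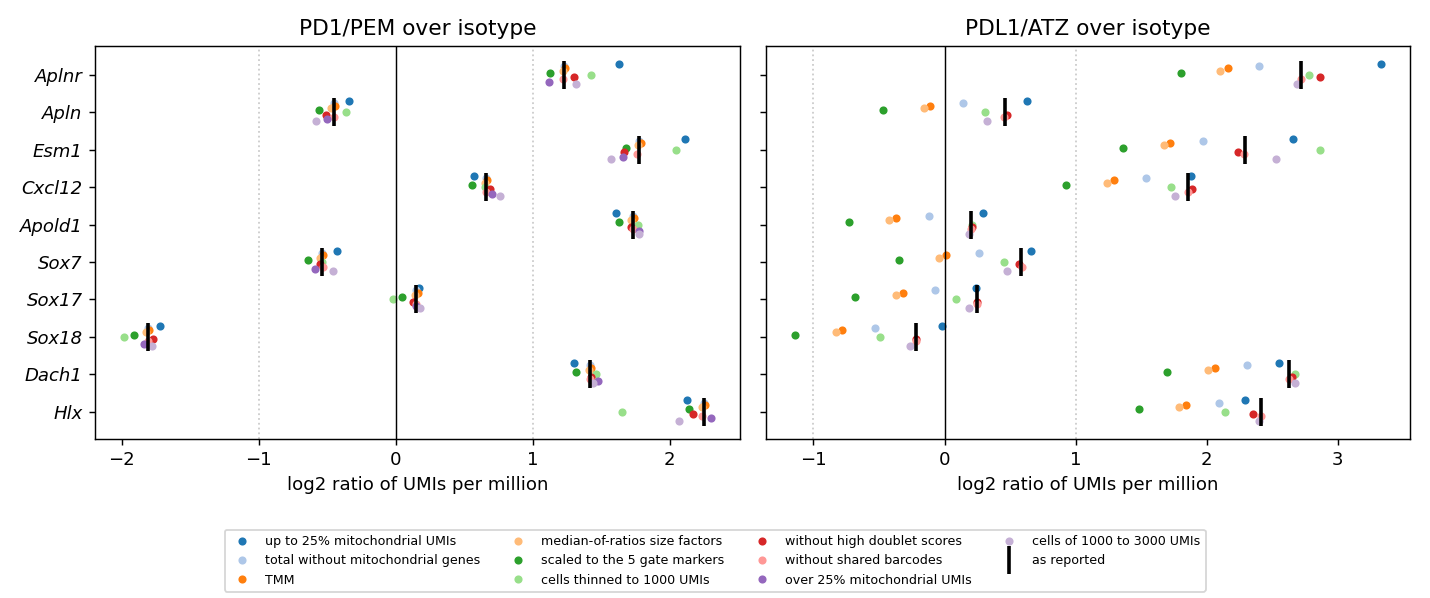
Log2 ratio to isotype of each of the 10 genes over all deposited cells under each other setting (points) and as reported (black bar). In PD1/PEM Hlx reaches down to 1.65 from 2.25. In PDL1/ATZ points lie on both sides of the bar, with Apold1 from -0.73 to 0.29 and Aplnr up to 3.33.

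Genes with the most similar pattern were sought over 12 sets of cells (each library split by 0, 1, 2 and 3 or more markers), as the Pearson r of log2(CPM + 1) among 7409 genes with at least 200 UMIs in every library. The sets share libraries and depth, and library dominates them, so r is a description. Apold1 was most like Errfi1 (r = 0.992), Alpk1 (0.987) and Spry4 (0.982), and 19 genes reached 0.95. Errfi1 and Spry4 encode feedback inhibitors of growth factor receptor signalling, and Spry4 was at 28.8, 94.6 and 32.6 CPM in isotype, PD1/PEM and PDL1/ATZ. Sox18 was most like Fam234a (0.967), Eml1 (0.964) and Crip2 (0.952), which were the only 3 to reach 0.95.

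Dach1 was most like the protocadherin gene Fat4 (r = 0.998), Fryl (0.996) and Tmtc2 (0.995), but 393 genes reached 0.95. Aplnr was most like Tspan13 (0.991), Rps15a (0.991) and Ly6e (0.988), with 464 genes at 0.95. Hlx was most like the prostaglandin receptor gene Ptger4 (0.985), Polg2 (0.976) and Mylip (0.974), with 23. Sox17 had no gene at 0.95, and its nearest were Cdkn1b (0.870), Slc39a10 (0.853) and Arl6ip1 (0.850). Aplnr and Hlx in isotype and Sox18 in PD1/PEM had fewer than the 200 UMIs asked of the genes they were compared with.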

How the data were processed

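Per the labels' protocols, cells of digested hearts were captured with a 10x Genomics 3′ kit. Cell Ranger and Seurat, with the mouse build mm10, are listed in the submitters' processing notes. Their versions and any filter on cells were not given in the sources used here. Each library has 1 deposited matrix of counts, made by the authors, in whole UMIs for every gene and cell. Groups follow the sample titles.

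UMIs were summed over all cells, and over cells with at least 3 of 5 endothelial markers detected, and scaled to 1000000 UMIs of the same cells (CPM), which assumes that library totals are comparable. Levels have exact Poisson, shares exact Clopper-Pearson and ratios exact conditional binomial intervals at 95%. They cover counting error only, so 21 UMIs give a far wider interval than 14409. Ratios were called at 2-fold, among genes with at least 50 UMIs over both libraries (20 in marker cells) and 1 in each. With 1 library per group no test was made. edgeR 4.0.16 in R 4.3.3 gave TMM factors only, and other steps used Python 3.11.15, numpy 2.4.6 and scipy 1.17.1.

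The 10 genes, the gene lists and the alternatives were chosen with earlier results of these data known. Beside the 10 genes, up to 4 genes of a list were named by largest PD1/PEM log2 ratio in either direction, and 3 genes by similarity for Aplnr, Apold1, Sox17, Sox18, Dach1 and Hlx. Flt1, Rgs5, Myh6 and the overlapping genes were named as checks. Doublets were not removed. As an alternative, 724, 326 and 1076 cells with the highest doublet scores (0.8% per 1000 cells) were left out. The ratio step was tested on simulated Poisson counts. Gene positions are from GENCODE M21 (GRCm38).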

Additional observations from a re-analysis of the deposited data

How the results depend on the processing

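Over all deposited cells the PD1/PEM count of 1 lower was 1 in the 13 other settings tried, and the count of 5 higher was 5 in 9 of them and 4 in the 4 where Esm1 was under the UMI minimum. In marker cells the PD1/PEM counts of 4 higher and 1 lower became 2 and 0 with cells thinned to 1000 UMIs (262 PD1/PEM and 275 isotype cells), the same at a minimum of 200 UMIs, and none either way (0 and 0) in the 4 PD1/PEM and 11 isotype cells without UMIs of other cell types. Fewer cells or genes enter these settings by construction. Among cells of 1000 to 3000 UMIs, a setting chosen after seeing the data, 2 were lower (Apln and Sox18). The Esm1 log2 ratio reversed to -0.59 (-2.96 to 2.09) with 4 or more markers, and the cause was not tested. The PDL1/ATZ count of 5 higher in marker cells became 3 at the 200 UMI minimum and 2 in the 77 cells without UMIs of other types, and scaled to the endothelial markers 1 gene, Sox18, was at least 2-fold lower in both cell sets. Up to 25% mitochondrial UMIs, 2 genes were at least 2-fold higher in isotype marker cells (Aplnr 9 against 2 UMIs, Esm1 2 against 0) and 2 in PD1/PEM (Esm1, Sox18), in place of 0. Aplnr in PDL1/ATZ had a log2 ratio of 3.33 there, on 21 isotype UMIs. No paired analysis was possible because each group is 1 library. Libraries cannot be told apart from groups, and depth limits Esm1, Hlx, Aplnr and Apln most.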

Other observations

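Vessel-bed lists were read in PD1/PEM against isotype over all deposited cells. Of all 14748 genes 7528 were higher there and 0.861% at least 2-fold, at a median log2 ratio of 0.01. Of 15 arterial genes 13 were higher, at a median log2 ratio of 0.19, and 0 were past 2-fold. Mecom, a transcription factor of arterial endothelium, was at 704 against 412 CPM. Of 15 capillary genes 10 were higher at a median of 0.14, with Btnl9 at 117 against 57.6 CPM the 1 gene past 2-fold, and Meox2 was at 235 against 118 CPM. The capillary genes past 2-fold numbered 2 with TMM factors and 0 when scaled to the endothelial markers. Of all genes, 134 and 84 were then at least 2-fold higher. Of 9 venous genes 6 were higher at a median of 0.14, and Aplnr was the 1 past 2-fold, while the venous receptor gene Ephb4 was at 38.7 against 61.5 CPM. Lymphatic genes had 5 of 7 higher at a median of 0.31 and endocardial genes 4 of 8 at 0.04. Of 19 tip cell genes 12 were higher at a median of 0.13, with Esm1 the 1 past 2-fold. Vegfa, the growth factor that guides tip cells, was at 98.0 against 170 CPM, sums over all cells that do not say which cells held it. Scaled to the endothelial markers, the capillary, venous and tip cell medians were each 0.03 and the endocardial median was -0.07. The arterial median was 0.09, with 11 higher and 4 lower, and the lymphatic median 0.20. The median over all genes was then -0.10, with 5548 higher and 9200 lower.

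Markers of other cell types differed too. All 4 smooth muscle genes were lower in PD1/PEM (median -0.42), and all 6 macrophage and 4 haemoglobin genes were higher (medians 0.43 and 0.91). Of all 14748 genes 7528 were higher, at a median of 0.01. The ratios of Fcgr1 (1.48, 0.936 to 2.37) and Hba-a2 (1.03, 0.985 to 1.07) had intervals that included 1. Scaled to the endothelial markers, 5 of 6 macrophage and 3 of 4 haemoglobin genes were higher, where 5548 of all genes were higher and 9200 lower. Of 6 pericyte genes 4 were higher at a median of 0.09, of 6 fibroblast genes 4 at 0.18, and of 4 mesothelial genes 3 at 0.41. Over all deposited cells none of these markers was past 2-fold, beside 0.861% of all genes higher and 0.454% lower. In marker cells 2 of the 6 macrophage genes were at least 2-fold higher, beside 2.52% of genes.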
